A study of Homo sapiens with 15 samples.

Results

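The 36 genes described here encode the subunits and inhibitors of the transcription factor NF-kB, cytokines, chemokines and colony stimulating factors, and targets that act in adhesion, survival signalling and mitochondrial or prostaglandin metabolism. They were chosen by symbol, and all 36 were found among the 62700 genes of each table of counts. RNA had been sequenced from 15 libraries of 143B, an established human osteosarcoma cell line. With 3 libraries for each of 5 conditions, the groups were non-OSC (adherent cells in medium with serum, genotype WT), OSC (spheres in serum-free medium with B27, EGF and bFGF, genotype WT), and spheres of OSCs that carried a lentiviral hairpin, namely shCtrl (labelled WT), shPDK1_1 or shPDK1_2. The hairpins were expressed from a puromycin vector, and both PDK1 hairpins target PDK1, a kinase that inactivates the pyruvate dehydrogenase complex.

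OSC and non-OSC libraries differed in culture format and in medium together, so the part of either cannot be told apart, and 1 cell line was used throughout. The first 6 libraries and the 9 hairpin libraries were deposited in tables of their own that were normalized separately, and no test was run across them. The sources used here do not say that the 3 libraries of a condition came from separate cultures, so p-values measure the spread between these libraries, which may be technical.

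NF-kB proteins form dimers that IkB inhibitors hold in the cytoplasm. When a receptor for TNF or IL-1, or a Toll-like receptor, activates the IKK kinases, the inhibitor is degraded, the dimer enters the nucleus and it binds kappa-B sites in the promoters of cytokine, chemokine and survival genes. A second, noncanonical arm runs through the kinase NIK, encoded by MAP3K14, which drives the processing of the NFKB2 precursor and the release of RELB dimers. NFKBIA, which encodes the inhibitor IkB-alpha, is itself a target of the pathway, and in osteosarcoma the products IL-6, IL-8 and IL-11 are known for acting on the tumor cells and on the surrounding bone.

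RefSeq promoter windows (250 bases before to 50 after the start of each gene, GRCh38.p14) were at hand for 29 of the 36 genes (all but RELB, NFKBIE, LIF, CCL2, CCL5, CSF1 and CSF3). All 29 windows were searched on both strands for the kappa-B decamer and for the AP-1 site TGANTCA, which FOS and JUN dimers recognize. Only windows that held a motif are shown. They belong to several of the genes that differed most between the conditions and to the paralogs CXCL1, CXCL2 and CXCL3. The kappa-B decamer was present in 13 of the 29 windows (44.8%) and in 5.72% of all 27305 promoters of the table. The AP-1 site was present in 4 of the 29 (13.8%) and in 7.76% of all promoters. Bases 140 to 41 before the start follow, in the direction of the gene, with the matched letters in capitals. In CXCL1, CXCL2 and CXCL3 the capitals join 2 overlapping matches, 1 on each strand.
CXCL1 (chr4:73869253-73869352, plus strand): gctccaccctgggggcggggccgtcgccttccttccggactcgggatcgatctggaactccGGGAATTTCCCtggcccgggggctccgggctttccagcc
CXCL2 (chr4:74099236-74099335, minus strand): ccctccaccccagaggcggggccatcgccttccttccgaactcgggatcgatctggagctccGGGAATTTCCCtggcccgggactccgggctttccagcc
CXCL3 (chr4:74038730-74038829, minus strand): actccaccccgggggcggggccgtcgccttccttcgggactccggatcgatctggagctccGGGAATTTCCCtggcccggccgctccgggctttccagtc
NFKBIA (chr14:35404790-35404889, minus strand): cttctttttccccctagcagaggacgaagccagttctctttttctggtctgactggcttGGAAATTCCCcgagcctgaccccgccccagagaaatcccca
IL6 (chr7:22727060-22727159, plus strand): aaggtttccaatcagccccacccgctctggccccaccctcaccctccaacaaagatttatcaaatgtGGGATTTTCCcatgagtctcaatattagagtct
CXCL8 (chr4:73740429-73740528, plus strand): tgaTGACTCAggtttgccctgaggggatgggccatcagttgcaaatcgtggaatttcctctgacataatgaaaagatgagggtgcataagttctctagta
IL11 (chr19:55370504-55370603, minus strand): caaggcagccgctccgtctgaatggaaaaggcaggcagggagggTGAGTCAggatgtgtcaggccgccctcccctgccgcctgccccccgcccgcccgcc

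In the first 5 of these windows the capitals are kappa-B decamer matches, and in CXCL8 and IL11 they are AP-1 matches. The remaining kappa-B matches lay in the windows of NFKB1, REL, NFKBIZ, CXCL5, CXCL6, CCL20, VCAM1 and BIRC3, and the remaining AP-1 matches in those of IL1A and TNFAIP6. Neither motif was found in the windows of NFKB2, RELA, IL1B, IL24, IL1R1, CSF2, ICAM1, TRAF1, TNFAIP2, IRAK2, SOD2 and PTGES. A match is a string of letters that fits TGANTCA or the kappa-B consensus GGGRNWYYCC in full, and it was not tested for binding. Sites that differ from these strings in any letter were not counted, so a window without a match can still hold one.

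Expression was measured as the expected count of reads per gene and is given as CPM (counts scaled to a library of fixed size), scaled to library size and composition by the TMM method. The summed counts lay between 7992499 and 10495051 per library in the OSC and non-OSC table and between 8073055 and 11256536 in the hairpin table. A count of 3, used as the detection floor, corresponded to between 0.289 and 0.369 CPM in the first table and between 0.267 and 0.372 CPM in the second. PDK1 itself had 45.2 ± 1.28 CPM in shCtrl OSCs, 28.1 ± 0.844 CPM with shPDK1_1 and 19.8 ± 1.65 CPM with shPDK1_2 (SD, n = 3 each), so both hairpins lowered their target, and shPDK1_2 lowered it further (log2 difference between the hairpins -0.50, adjusted p = 0.00024). Without a hairpin, PDK1 had 46.6 ± 4.47 CPM in non-OSCs and 70.3 ± 3.03 CPM in OSCs (SD, n = 3 each, log2 fold change 0.59, SE 0.079). Of the markers that the tissue label implies, COL1A1, SPARC and VIM were high in every library and RUNX2 was present, while SP7 was at 0 or near it and COL1A2 stayed under 2 CPM on average. The 7 mesenchymal and osteoblast markers summed to between 4793 and 5043 CPM in non-OSCs and between 7608 and 8107 CPM in OSCs, most of it VIM. RUNX2, the transcription factor of the osteoblast lineage, was lower in OSCs (log2 fold change -1.11, adjusted p = 9.3e-09), and ALPL did not pass (-0.86, adjusted p = 0.0514). The 5 lymphocyte markers were at 0 in every library except for 0.105 CPM in 1, and PTPRC, which marks leukocytes, was at 0 in OSCs and non-OSCs.

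Across the 5 conditions, 30 of the 36 genes had enough counts to be tested between OSCs and non-OSCs, and 27 in the hairpin table. CXCL5, CXCL6, CCL5, CCL20, VCAM1 and TNFAIP6 were too low in both tables, with at most 10 counts in any library, and IL1B, CCL2 and CSF2 were too low in the hairpin table. There IL1B had 5 to 10 counts in shCtrl, 4 to 5 with shPDK1_1 and 0 to 1 with shPDK1_2, which was not tested. For CCL2 and CSF2 the shPDK1_2 and shCtrl libraries overlapped. CXCL6 was at 0 in all 6 OSC and non-OSC libraries, and VCAM1, an endothelial and stromal adhesion molecule, was at 0 in all 9 hairpin libraries. At this depth the ELR+ neutrophil chemokines CXCL5 and CXCL6 and the CC chemokine CCL20 were therefore not detectable as changed or unchanged. The CC chemokine CCL5 was not tested either, but its OSC libraries, with 4 to 10 counts, did not overlap with the non-OSC libraries, with 0 to 1.

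Levels of different genes can be set against each other only per length of transcript. On the scale of CPM per kilobase of the canonical transcript, RELA, the canonical activating subunit, led in non-OSCs with 39.3 ± 1.82, followed by IL1B with 19.6 ± 0.396 and NFKB1 with 13.7 ± 0.985 (SD, n = 3 each). In OSCs IL11 had the highest level with 69.4 ± 5.35, followed by RELA with 64.0 ± 0.929, CXCL8 with 50.2 ± 1.12, NFKBIA with 43.4 ± 1.46 and NFKB2 with 40.3 ± 1.45 (SD, n = 3 each). The difference between IL11 and RELA in OSCs was about 1 SD of IL11, so their order is not settled. In shCtrl OSCs RELA led again with 54.7 ± 2.15, and IL11 followed with 32.2 ± 0.965 (SD, n = 3 each).

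The comparison of OSCs with non-OSCs asks how the sphere culture that enriches stem-like osteosarcoma cells differs from the parental adherent culture. NF-kB subunits and inhibitors, the neutrophil chemokines CXCL1, CXCL2, CXCL3 and CXCL8, and the gp130 cytokines IL6, IL11 and LIF were higher in OSCs, with 27.5 times the non-OSC mean for IL6 and 9.31 times for CXCL8. IL1A, IL1B, IL24, CSF3 and PTGES were lower, and IL1B fell to 9.25% of its non-OSC mean. Of the 30 tested genes, 22 were higher and 5 lower in OSCs (quasi-likelihood test of edgeR, adjusted by Benjamini-Hochberg over all 14287 tested genes, adjusted p under 0.05), or 73.3% and 16.7%. Among all tested genes 32.4% were higher and 31.5% lower. With a difference of at least 2-fold added, 16 of the 30 were higher (53.3%, against 10.2% of all tested genes) and 3 were lower (10%, against 5.53%). The median log2 fold change of the 30 genes was 1.25, against -0.01 over all genes. The 3 libraries of each condition did not overlap for 27 of the 30, where this held for 66.9% of all tested genes. CXCL2, CXCL3, IL6, CCL2, CSF2 and TRAF1 passed the filter on low counts only through the OSC libraries, so for these 6 the filter itself required a level in OSCs. In bulk RNA, fewer cells that express a gene and less RNA per cell cannot be told apart.

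**Figure D1:**
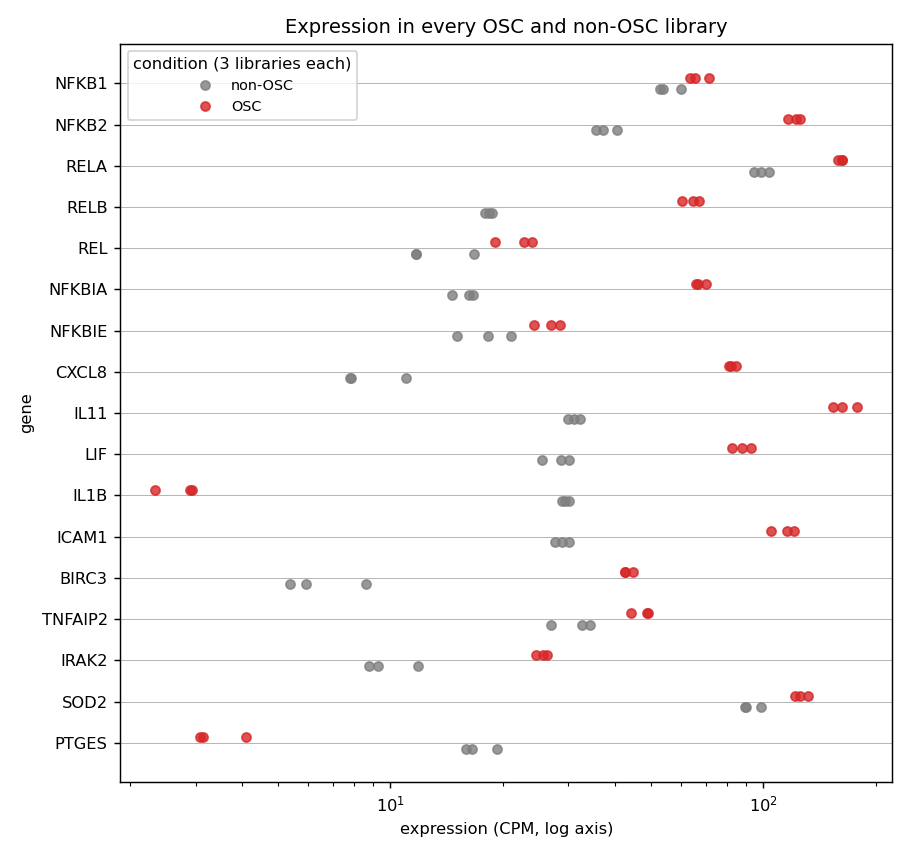
Expression in CPM (log axis) of the 17 genes that differed between OSCs and non-OSCs and had a mean of at least 10 CPM; each point is 1 library, with 3 OSC (red) and 3 non-OSC (grey) libraries per gene. The red points lie to the right of the grey ones for 15 genes and to the left for IL1B and PTGES, without overlap.

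All 5 subunits of NF-kB were higher in OSCs (gene positions here and below are from GENCODE on GRCh38). NFKB2 (ENSG00000077150.21, chr10:102394110-102402524), the precursor of the noncanonical subunit p52, had 37.2, 35.6 and 40.4 CPM in non-OSC replicates 1, 2 and 3 and 117, 122 and 125 CPM in OSC replicates 1, 2 and 3. RELB (ENSG00000104856.15, chr19:45001461-45038192), the partner of p52, had 17.9, 18.4 and 18.7 CPM in non-OSCs and 60.5, 64.7 and 67.4 CPM in OSCs. Every OSC library lay more than 2-fold above every non-OSC library for both genes, and the log2 fold changes were 1.69 (standard error, SE, 0.070, adjusted p = 5.86e-15) for NFKB2 and 1.81 (SE 0.087, adjusted p = 8.75e-14) for RELB.

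The subunits of the canonical arm rose less. RELA (ENSG00000173039.20, chr11:65653599-65663090) had 98.4, 94.7 and 104 CPM in non-OSCs and 158, 162 and 163 CPM in OSCs, with a log2 fold change of 0.70 (SE 0.056). NFKB1 (ENSG00000109320.14, chr4:102501330-102617302), the precursor of p50, had 52.9, 53.9 and 60.3 CPM in non-OSCs and 71.6, 65.7 and 63.8 CPM in OSCs, and its log2 fold change of 0.27 (SE 0.076) was the smallest of the 5. REL, which encodes c-Rel, had 16.8, 11.7 and 11.7 CPM in non-OSCs and 23.9, 22.9 and 19.1 CPM in OSCs. Non-OSC replicate 1 was the highest of its group for REL but still lay under each OSC library. REL shares 31.8% of its sequence, as stretches of 75 bases, with a read-through gene and others, so its level is uncertain to that extent.

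The 3 inhibitors rose as well. NFKBIA (ENSG00000100906.12, chr14:35401079-35404749) had 16.2, 16.6 and 14.7 CPM in non-OSCs and 66.8, 65.9 and 70.2 CPM in OSCs, a log2 fold change of 2.09 (SE 0.089, adjusted p = 1e-14). The OSC level was thus 4.27 times that of non-OSCs, the largest ratio among the subunits and inhibitors. NFKBIE, which encodes IkB-epsilon, had 15.0, 21.0 and 18.3 CPM in non-OSCs and 28.5, 26.9 and 24.3 CPM in OSCs (log2 fold change 0.56, SE 0.12). NFKBIZ, an atypical nuclear IkB protein that can also activate genes such as IL6 (ENSG00000136244.12, chr7:22725884-22732002), ranged from 4.71 to 5.59 CPM in non-OSCs and from 13.8 to 16.0 CPM in OSCs (log2 fold change 1.51, SE 0.160).

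All 4 tested ELR+ chemokines, ligands of CXCR1 and CXCR2 that attract neutrophils, were higher in OSCs. CXCL8 (ENSG00000169429.12, chr4:73740519-73743716), which encodes IL-8, had 11, 7.77 and 7.82 CPM in non-OSCs and 81.1, 81.8 and 84.6 CPM in OSCs. The OSC libraries lay close together and far above the others, with a log2 fold change of 3.20 (SE 0.107, adjusted p = 1.93e-16). Its neighbours on chromosome 4 were lower throughout: CXCL1 ranged from 3.38 to 4.63 CPM in non-OSCs and from 7.73 to 10.5 CPM in OSCs, CXCL2 from 0.868 to 1.31 and from 3.26 to 4.55 CPM, and CXCL3 from 0.657 to 1.32 and from 1.60 to 3.14 CPM. Their log2 fold changes were 1.14, 1.95 and 1.37 (SEs 0.202, 0.347 and 0.427). CXCL2 shares 7.56% of its sequence with CXCL3 and CXCL1, and CXCL3 shares 4.57% with CXCL2, so reads can be split between them. Summed over CXCL1, CXCL2 and CXCL3 the log2 fold change was 1.35. The call of CXCL3 was lost without OSC replicate 3, where its log2 fold change was 1.09 and its adjusted p 0.071.

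The 3 cytokines that signal through the shared receptor subunit gp130 were all higher in OSCs. IL11 (ENSG00000095752.7, chr19:55364382-55370463), a cytokine known in bone for promoting osteoclast formation, had 31.1, 32.3 and 29.9 CPM in non-OSCs and 154, 179 and 163 CPM in OSCs. LIF (ENSG00000128342.5, chr22:30240453-30246759), which maintains mouse embryonic stem cells in culture, had 25.5, 30.1 and 28.6 CPM in non-OSCs and 82.3, 87.9 and 92.8 CPM in OSCs. Both genes were well covered, with at least 260 counts in each of these libraries, and the log2 fold changes were 2.41 (SE 0.072, adjusted p = 2.87e-17) for IL11 and 1.65 (SE 0.082, adjusted p = 1.38e-13) for LIF. IL6 had only 12, 7 and 1 counts in the non-OSC libraries and 144, 192 and 156 in the OSC libraries. This gave a log2 fold change of 4.72 (SE 0.277, adjusted p = 2.27e-12), the largest of the 30 and close to that of CSF2, and it lay between 4.24 and 5.36 in the alternatives, the highest value coming without non-OSC replicate 1, so that few reads decide its size. IL6 overlaps genes on the other strand along 9.91% of its exons, and the strandedness of the libraries is not given in the sources used here.

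The IL-1 cytokines IL1B and IL1A were lower in OSCs. IL1B (ENSG00000125538.12, chr2:112829751-112836816), the inflammatory cytokine that is cleaved and released by inflammasomes, had 30.1, 28.9 and 29.4 CPM in non-OSCs and 2.34, 2.93 and 2.90 CPM in OSCs. All 3 OSC libraries were far below the non-OSC libraries, with a log2 fold change of -3.42 (SE 0.15, adjusted p = 1.54e-14). IL1A ranged from 7.05 to 10.1 CPM in non-OSCs and from 4.07 to 5.16 CPM in OSCs, a log2 fold change of -0.80 (SE 0.203). Their signalling receptor IL1R1 did not pass the threshold, with 6.25 ± 0.324 CPM in non-OSCs and 5.64 ± 0.724 CPM in OSCs (SD, n = 3 each, log2 fold change -0.16, SE 0.198, adjusted p = 0.508). IL24, a cytokine of the IL-10 family, ranged from 8.87 to 9.04 CPM in non-OSCs and from 1.33 to 2.02 CPM in OSCs (log2 fold change -2.34, SE 0.235), and 41.6% of its exons lie opposite those of FCMR.

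The 3 colony stimulating factors, which direct the growth of macrophages and granulocytes, differed from each other. CSF2, which encodes GM-CSF, had 1, 4 and 0 counts in the non-OSC libraries and 35, 54 and 40 in the OSC libraries, and its log2 fold change of 4.70 (SE 0.517) moved to 6.23 without non-OSC replicate 2. CSF3, which encodes G-CSF, ranged from 11 to 13.5 CPM in non-OSCs and from 6.07 to 7.52 CPM in OSCs, a log2 fold change of -0.92 (SE 0.165). CSF1 had 19.9 ± 1.28 CPM in non-OSCs and 23.5 ± 3.37 CPM in OSCs (SD, n = 3 each) and did not pass the threshold (log2 fold change 0.24, SE 0.116, adjusted p = 0.0742). It passed when libraries were scaled by size alone (log2 fold change 0.28, adjusted p = 0.0407) and without OSC replicate 1 (0.35, adjusted p = 0.0144). The monocyte chemokine CCL2 had between 9 and 24 counts in these 6 libraries and did not pass the threshold (log2 fold change 0.41, SE 0.406, adjusted p = 0.389).

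Targets that act in adhesion, survival and receptor signalling rose. ICAM1 (ENSG00000090339.9, chr19:10271093-10286615), the ligand of the leukocyte integrin LFA-1, had 27.7, 28.8 and 30.1 CPM in non-OSCs and 116, 105 and 121 CPM in OSCs. BIRC3 (ENSG00000023445.17, chr11:102317484-102339403), an inhibitor of apoptosis and ubiquitin ligase that restrains NIK, had 8.58, 5.36 and 5.95 CPM in non-OSCs and 44.8, 42.6 and 42.6 CPM in OSCs. The groups were far apart for both, with log2 fold changes of 1.98 (SE 0.077, adjusted p = 2.05e-15) for ICAM1 and 2.69 (SE 0.131, adjusted p = 1.01e-13) for BIRC3. Exons of opposite-strand genes overlap 25.4% of the ICAM1 exons. TRAF1, an adaptor of TNF receptors, ranged from 5 to 13 counts in non-OSCs and from 30 to 49 in OSCs (log2 fold change 2.15, SE 0.351). IRAK2 (ENSG00000134070.5, chr3:10164919-10243745), a kinase of IL-1 and Toll-like receptor signalling, had 8.78, 11.8 and 9.26 CPM in non-OSCs and 24.5, 25.7 and 26.2 CPM in OSCs (log2 fold change 1.36, SE 0.128). TNFAIP2, a TNF-induced gene, had 27.0, 32.6 and 34.3 CPM in non-OSCs and 44.1, 48.7 and 48.9 CPM in OSCs, a smaller difference of 0.60 on the log2 scale (SE 0.095).

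The 2 enzymes moved in opposite directions. SOD2 (ENSG00000291237.1, chr6:159669069-159762529), the mitochondrial superoxide dismutase, had 98.5, 89.9 and 89.1 CPM in non-OSCs and 132, 125 and 121 CPM in OSCs (log2 fold change 0.44, SE 0.061, adjusted p = 1.57e-06). PTGES (ENSG00000148344.11, chr9:129738331-129753042), which makes prostaglandin E2, had 15.9, 19.3 and 16.5 CPM in non-OSCs and 3.08, 3.14 and 4.11 CPM in OSCs (log2 fold change -2.32, SE 0.175, adjusted p = 1.53e-10). Both groups of libraries were apart for each enzyme, and SOD2 shares 5.46% of its sequence with SOD2-OT1 and other genes.

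**Figure D2:**
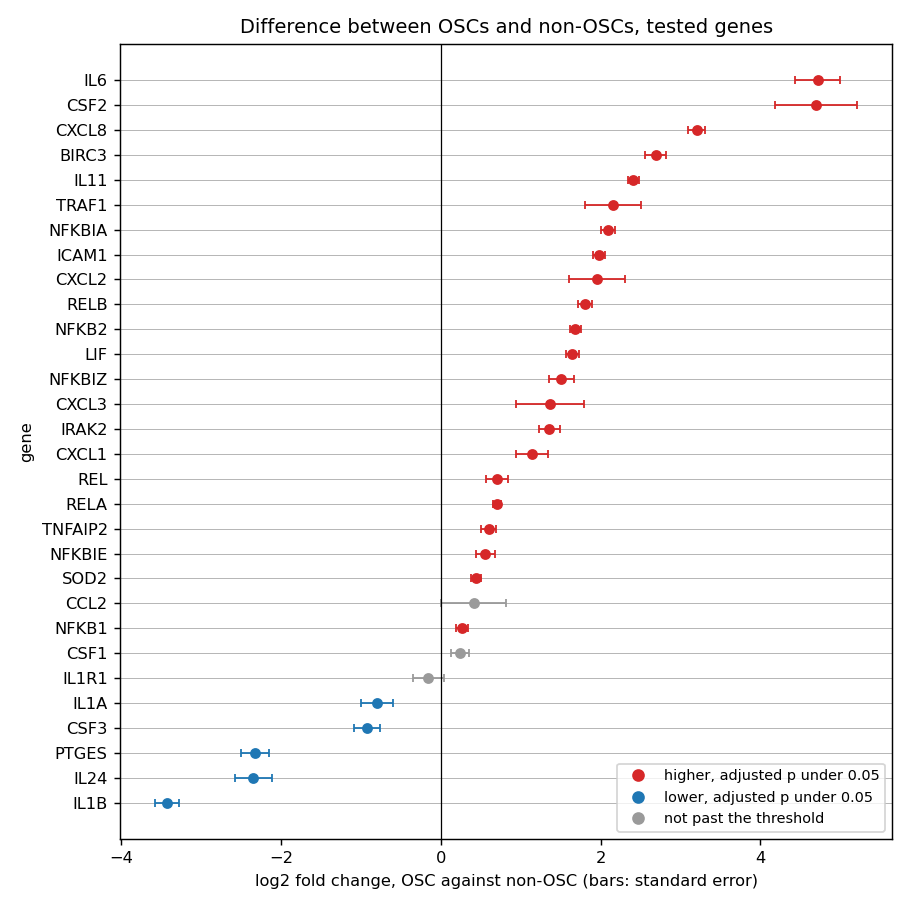
Log2 fold change of OSCs against non-OSCs for the 30 tested genes, in order of size, with bars for the standard error; red and blue mark genes that were higher or lower at an adjusted p under 0.05, and grey those that were not. The values run from 4.72 for IL6 to -3.42 for IL1B, and CSF1, CCL2 and IL1R1 are grey.

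In the 34 other components of the pathway, from receptors to the IKK complex and its regulators, the higher and lower genes were nearer to balance. Of the 31 that were tested, 14 were higher (45.2%, against 32.4% of all tested genes) and 10 lower (32.3%, against 31.5%) in OSCs, with a median log2 fold change of 0.05. TNFAIP3, which encodes the ubiquitin-editing inhibitor of NF-kB signalling A20, had the largest difference of the 31, with 10.3 ± 2.05 CPM in the non-OSC libraries and 78.3 ± 3.77 CPM in the OSC libraries (SD over 3 each, log2 fold change 2.93, SE 0.107, adjusted p = 7.96e-16). The other higher ones included TNFRSF1B, the second TNF receptor (log2 fold change 1.39, SE 0.221), the adaptor TRADD (0.92) and the deubiquitinase CYLD (0.74). The kinase genes MAP3K14 and CHUK, which encode NIK and IKK-alpha of the noncanonical arm, were lower. MAP3K14 fell by 2.21 on the log2 scale (SE 0.116, adjusted p = 3.28e-13), from 49.2 to 10.7 CPM on average, and CHUK by 0.51 (SE 0.10). Thus in the libraries where NFKB2 and RELB were higher, MAP3K14 and CHUK were lower, while IKBKB (log2 fold change -0.17, adjusted p = 0.0667) and IKBKG (-0.04, adjusted p = 0.758) did not pass the threshold.

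Receptors for the listed ligands were measured alongside them. Of 25 receptors and decoys, 9 were tested, and 5 were higher (55.6%, against 32.4% of all tested genes) and 2 lower (22.2%, against 31.5%) in OSCs. The higher ones were 4 receptor subunits of the gp130 family and the IL-1 receptor accessory protein, while IL11RA, the receptor subunit for IL11, did not pass (log2 fold change 0.50, SE 0.264, adjusted p = 0.106). IL6R rose from 36.4 to 113 CPM on average (log2 fold change 1.63, SE 0.071), OSMR, the oncostatin M receptor, from 64.9 to 172 CPM (1.40, SE 0.062), LIFR from 33.2 to 59.4 CPM (0.83, SE 0.088), IL1RAP from 14.5 to 33.6 CPM (1.21, SE 0.121) and IL6ST, which encodes gp130 itself, from 242 to 296 CPM (0.29, SE 0.053). The VCAM1 receptor subunits ITGA4 and ITGB1 were lower (log2 fold changes -1.54 and -0.16). The receptors of the neutrophil chemokines were absent or nearly so, with 0 counts of CXCR1 and at most 2 counts of CXCR2 in any of the 15 libraries. CSF3R and CSF2RB were at 0 and CSF1R had at most 3 counts.

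Markers of other cell types also moved between OSCs and non-OSCs. The epithelial markers, chiefly KRT8 and KRT18, summed to between 1097 and 1227 CPM in non-OSCs and between 292 and 302 CPM in OSCs, with CDH1 at or under the floor of 3 counts. The 7 myeloid markers, nearly all of it CD68, summed to between 61.6 and 69.3 CPM and between 55.5 and 57.1 CPM, respectively, and the 4 endothelial markers to between 5.69 and 6.72 CPM and between 1.52 and 2.34 CPM. Of the endothelial markers, KDR fell from 5.58 to 0.494 CPM on average. PECAM1 went the other way, from 0.490 to 1.24 CPM, VWF had at most 4 counts and CDH5 was at 0. The part of the markers of other cell types in the results was not tested. Of the 7 myeloid markers, 4 in non-OSCs and 5 in OSCs were at or under the floor in every library, PTPRC among them.

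The knockdown comparison asks which genes depend on PDK1 in OSCs, with both hairpins set against the same 3 shCtrl libraries. Beyond SOD2, no listed gene passed the threshold with shPDK1_1, whereas with shPDK1_2 the cytokine IL11, the chemokines CXCL8, CXCL1 and CXCL2, and several subunits and targets of NF-kB were lower than in shCtrl. IL11 fell to 36.5% and CXCL8 to 43.4% of the shCtrl mean. Of the 27 tested genes, 1 was lower with shPDK1_1 (3.70%, against 1.44% of all 14574 tested genes, quasi-likelihood test of edgeR, adjusted by Benjamini-Hochberg) and 0 were higher (against 1.62%). At an unadjusted p under 0.05, 2 were higher and 3 lower with this hairpin, and DESeq2 called 1 lower and 0 higher. With shPDK1_2, 14 were lower (51.9%, against 14.2% of all genes) and 0 higher (against 12.0%). No listed gene was higher with shPDK1_2 at an unadjusted p under 0.05 or by DESeq2, which called 11 lower. Where at least 10 counts were required in every library, 1 was higher at an unadjusted p under 0.05. The median log2 fold change of the 27 genes was 0.02 with shPDK1_1 and -0.44 with shPDK1_2, against 0.00 and 0.01 over all genes. Without shCtrl replicate 2, 9 genes were lower with shPDK1_2 (2 higher and 13 lower at an unadjusted p under 0.05). In the same fit edgeR called 0 with shPDK1_1 (2 higher and 3 lower at an unadjusted p under 0.05). The 5 genes that lost their call with shPDK1_2 were RELA, REL, CXCL1, CXCL2 and CSF3.

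**Figure D3:**
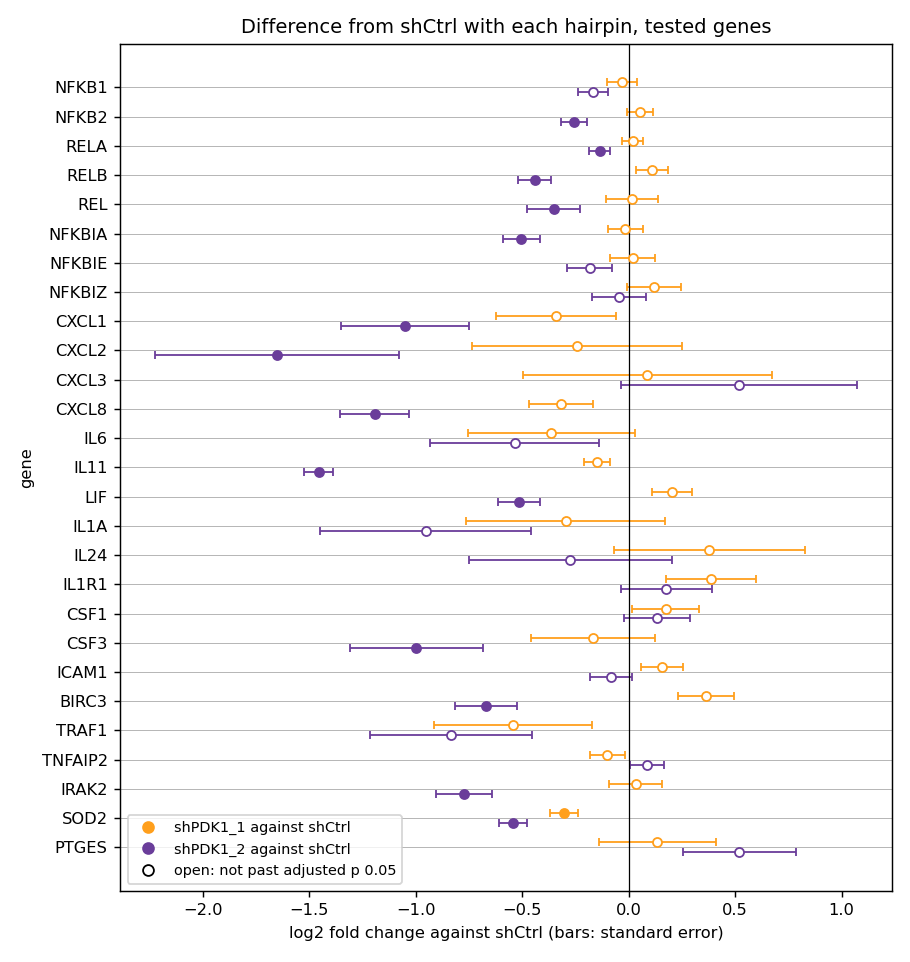
Log2 fold change against shCtrl for the 27 tested genes with shPDK1_1 (orange) and shPDK1_2 (purple), with bars for the standard error; filled points passed an adjusted p of 0.05. Both hairpins are compared with the same 3 shCtrl libraries. With shPDK1_2, 14 points are filled and lie left of 0, from IL11 at -1.46 and CXCL2 at -1.65 to RELA at -0.14; with shPDK1_1, SOD2 at -0.30 is filled.

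IL11 and CXCL8 showed the clearest differences with shPDK1_2. IL11 had 79.2, 75.1 and 75.3 CPM in shCtrl replicates 1, 2 and 3, 67.4, 70.2 and 69.4 CPM with shPDK1_1, and 27.5, 28.7 and 27.5 CPM with shPDK1_2. All 3 shPDK1_2 libraries were far below the other 6, and the log2 fold change was -1.46 (SE 0.068, adjusted p = 1.6e-14). The shPDK1_1 libraries lay just under the shCtrl range, with a log2 fold change of -0.15 (SE 0.061, adjusted p = 0.243). CXCL8 had 12.7, 13.3 and 19.6 CPM in shCtrl, 12.7, 11.1 and 12.5 CPM with shPDK1_1, and 6.43, 6.47 and 6.88 CPM with shPDK1_2. Replicate 3 of shCtrl stood above the others, and the shPDK1_2 libraries were lower than each of them (log2 fold change -1.19, SE 0.163, adjusted p = 2.92e-06). With shPDK1_1 the log2 fold change of CXCL8 was -0.32 (SE 0.151, adjusted p = 0.328).

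The other gp130 cytokines differed less. LIF had 28.3, 26.1 and 25.7 CPM in shCtrl, 28.5, 30.4 and 33.0 CPM with shPDK1_1, and 17.4, 18.3 and 20.4 CPM with shPDK1_2. The 2 hairpins lay on opposite sides of shCtrl for LIF, with log2 fold changes of 0.20 (SE 0.093, adjusted p = 0.307) for shPDK1_1, which did not pass the threshold, and -0.52 (SE 0.099, adjusted p = 0.000255) for shPDK1_2. IL6 had between 9 and 21 counts in the 9 libraries, too few to place a difference. Its log2 fold changes were -0.36 (SE 0.393) and -0.54 (SE 0.396), with adjusted p of 0.747 and 0.354.

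Among the other chemokines, CXCL1 ranged from 2.74 to 5.72 CPM in shCtrl, from 2.61 to 3.87 CPM with shPDK1_1 and from 2.05 to 2.22 CPM with shPDK1_2. CXCL2 had between 11 and 17 counts in shCtrl and between 2 and 7 with shPDK1_2, and it passed the filter on low counts only through shCtrl, the condition in which it was high. Their log2 fold changes with shPDK1_2 were -1.05 (SE 0.30, adjusted p = 0.0102) and -1.65 (SE 0.573, adjusted p = 0.0343). CXCL3, at 3 to 16 counts, was the paralog with the opposite sign, with 0.52 (SE 0.556, adjusted p = 0.545). Because CXCL2 and CXCL3 share sequence, the sum of CXCL1, CXCL2 and CXCL3 was also fitted, and it was lower with shPDK1_2 (log2 fold change -0.84, adjusted p = 0.00754).

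Of the NF-kB subunits, 4 of 5 were lower with shPDK1_2 and none with shPDK1_1. RELB had 49.1, 43.2 and 48.8 CPM in shCtrl, 49.3, 51.8 and 50.7 CPM with shPDK1_1, and 33.8, 36.4 and 33.5 CPM with shPDK1_2. NFKB2 had 82.0, 83.7 and 85.2 CPM, 81.1, 94.0 and 85.2 CPM, and 68.4, 71.7 and 69.6 CPM, respectively. The shPDK1_2 libraries were the lowest 3 for both genes, with log2 fold changes of -0.44 (SE 0.078, adjusted p = 9.45e-05) and -0.26 (SE 0.062, adjusted p = 0.00247). RELA and REL passed more narrowly. RELA had 144, 135 and 134 CPM in shCtrl, 143, 141 and 135 CPM with shPDK1_1, and 128, 125 and 123 CPM with shPDK1_2 (log2 fold change -0.14, SE 0.049, adjusted p = 0.0442). REL had 16.2, 19.5 and 18.4 CPM in shCtrl, 20.9, 15.3 and 18.8 CPM with shPDK1_1, and 13.5, 15.1 and 13.9 CPM with shPDK1_2 (-0.35, SE 0.124, adjusted p = 0.037). The call of RELA was lost in 9 of 15 alternatives and that of REL in 5 of 15. NFKB1 had 53.6 ± 2.88 CPM in shCtrl and 47.7 ± 2.51 CPM with shPDK1_2 (SD, n = 3 each) and did not pass (-0.17, SE 0.071, adjusted p = 0.0866).

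Among the inhibitors NFKBIA alone was lower with shPDK1_2. It had 40.6, 40.0 and 42.6 CPM in shCtrl, 36.8, 38.8 and 45.4 CPM with shPDK1_1, and 28.1, 28.7 and 29.9 CPM with shPDK1_2, so the last group did not overlap with the others (log2 fold change -0.50, SE 0.086, adjusted p = 6.77e-05). NFKBIZ stayed within 12.9 to 18.8 CPM in all 9 libraries, with a log2 fold change of -0.05 (SE 0.126, adjusted p = 0.836) for shPDK1_2. NFKBIE had a value of -0.18 (SE 0.107, adjusted p = 0.226).

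BIRC3 and IRAK2 were lower with shPDK1_2, and ICAM1 and TNFAIP2 were not. BIRC3 had 12.6, 15.5 and 16.3 CPM in shCtrl, 22.9, 16.1 and 18.3 CPM with shPDK1_1, and 9.50, 9.20 and 9.06 CPM with shPDK1_2. The shPDK1_1 libraries overlapped with shCtrl and lay toward higher values (log2 fold change 0.36, SE 0.132, adjusted p = 0.163), and the shPDK1_2 libraries lay below both (-0.67, SE 0.145, adjusted p = 0.000917). IRAK2 had 16.8, 13.9 and 14.8 CPM, 17.2, 14.6 and 14.9 CPM, and 8.38, 8.60 and 9.58 CPM, in the same order, a log2 fold change of -0.77 (SE 0.133, adjusted p = 7.32e-05) with shPDK1_2. ICAM1 had 32.3 ± 3.18 CPM in shCtrl, 35.7 ± 1.96 CPM with shPDK1_1 and 30.4 ± 4.04 CPM with shPDK1_2 (SD, n = 3 each), and neither hairpin passed the threshold (log2 fold changes 0.16 and -0.08, SEs 0.097 and 0.099, adjusted p = 0.504 and 0.581). TNFAIP2 had 40.3 ± 1.04, 37.5 ± 2.71 and 42.7 ± 3.41 CPM (SD, n = 3 each), with log2 fold changes of -0.10 and 0.09. TRAF1, at 10 to 31 counts, had -0.84 (SE 0.380, adjusted p = 0.111) with shPDK1_2.

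SOD2 was lower with both hairpins. It had 62.7, 71.0 and 67.8 CPM in shCtrl, 54.5, 53.5 and 55.2 CPM with shPDK1_1, and 46.6, 45.0 and 46.7 CPM with shPDK1_2. The 3 groups did not overlap, with log2 fold changes of -0.30 (SE 0.066, adjusted p = 0.00788) and -0.54 (SE 0.067, adjusted p = 6.7e-07). The call with shPDK1_1 was lost without shCtrl replicate 2, the highest of the shCtrl libraries, where the log2 fold change was -0.26 and the adjusted p 0.0847. PTGES, the other enzyme, had 19 to 51 counts and a log2 fold change of 0.52 (SE 0.264, adjusted p = 0.158) with shPDK1_2. Of the colony stimulating factors, CSF3 ranged from 2.63 to 3.92 CPM in shCtrl and from 1.42 to 2.08 CPM with shPDK1_2, a log2 fold change of -1.0 (SE 0.312, adjusted p = 0.0189). CSF1 had a log2 fold change of 0.13 (SE 0.155, adjusted p = 0.577). IL1A, IL24 and IL1R1 had log2 fold changes between -0.95 and 0.18 with shPDK1_2 and did not pass.

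The contrast of shPDK1_2 with shPDK1_1 tests the difference between the hairpins itself. Of the 27 genes, 11 were lower with shPDK1_2 than with shPDK1_1 (40.7%, against 9.78% of all tested genes) and 0 higher (against 6.50%). At an unadjusted p under 0.05, 15 were lower and 1 higher, and DESeq2 called 10 lower and 0 higher. Among the 11 that passed, the largest differences were in IL11 (log2 fold change -1.31, SE 0.069, adjusted p = 2.28e-13), BIRC3 (-1.03, SE 0.139, adjusted p = 5.03e-06), CXCL8 (-0.87, SE 0.166, adjusted p = 0.000426) and IRAK2 (-0.81, SE 0.132, adjusted p = 7.15e-05), while CXCL2 (-1.41, adjusted p = 0.103) and CSF3 (-0.83, adjusted p = 0.0749) did not pass. The 2 hairpins thus differed from each other in 11 of the 27 genes, and the residual PDK1 level, the hairpin sequence and the library group cannot be told apart as the source.

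Of the other pathway components, 4 of 31 tested were higher (12.9%, against 12.0% of all tested genes) and 5 lower (16.1%, against 14.2%) with shPDK1_2, both close to the shares over all genes, and 2 were higher with shPDK1_1 (6.45%, against 1.62%). With shPDK1_2, 2 were higher by DESeq2 and without shCtrl replicate 3 or shPDK1_2 replicate 3, and 8 were lower with library size alone, with the replicate block, in the fit of the 2 groups alone and without shPDK1_1 replicate 2. With shPDK1_1, 0 were higher by edgeR without shCtrl replicate 1 (2 at an unadjusted p under 0.05), and 1 without shCtrl replicate 2, shPDK1_1 replicate 1 or shPDK1_1 replicate 3. BCL3, an atypical IkB protein and coactivator of p50 and p52, was higher with both, with log2 fold changes of 0.45 (SE 0.093, adjusted p = 0.00541) and 0.28 (SE 0.093, adjusted p = 0.0281) for shPDK1_1 and shPDK1_2. TNFAIP3 passed in opposite directions, with 31.0 ± 1.82 CPM in shCtrl, 39.3 ± 2.08 CPM with shPDK1_1 and 23.0 ± 0.739 CPM with shPDK1_2 (SD, n = 3 each). Its log2 fold changes were 0.34 (SE 0.083, adjusted p = 0.0189) and -0.43 (SE 0.088, adjusted p = 0.000548), and the contrast of the hairpins gave -0.77 (SE 0.085, adjusted p = 2.62e-07). TNFRSF12A, the receptor of TWEAK (log2 fold change -0.55), RIPK1, a kinase at the TNF receptor (-0.34), TRAF6, a ubiquitin ligase of IL-1 receptor signalling (-0.34), and LTBR (-0.19) were lower with shPDK1_2, and TLR4 (0.45), TNFRSF11A, which encodes RANK (0.79), and TAB1 (0.30) were higher. MAP3K14 did not pass with either hairpin (log2 fold changes 0.19 and 0.38, adjusted p = 0.629 and 0.0593). Among the 9 tested receptors, IL6ST fell with shPDK1_2 from 192 to 135 CPM on average (log2 fold change -0.51, SE 0.058, adjusted p = 1.5e-07) and ITGB1 from 606 to 494 CPM (-0.30, SE 0.039), while IL6R (0.21) and IL1RAP (0.39) were higher. With shPDK1_1 the test called 0 of the 9 receptors, as did DESeq2, and 2 were higher at an unadjusted p under 0.05.

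CD68, which lysosomes of many cell types carry, was also lower with shPDK1_2, from 39.4 to 22.1 CPM on average (log2 fold change -0.83, adjusted p = 9.02e-08), and made up nearly all of the summed myeloid markers (37.6 to 44.2 CPM in shCtrl, 36.8 to 39.3 CPM with shPDK1_1 and 21.9 to 24.3 CPM with shPDK1_2). The epithelial markers summed to 330 to 354, 379 to 397 and 436 to 475 CPM and the mesenchymal and osteoblast markers to 7744 to 8076, 7648 to 8213 and 8105 to 8556 CPM in the same order. Their part in the results was not tested. PTPRC, LYZ and CSF1R were at or near 0 in each group.

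Across the 2 experiments, genes that were higher in OSCs than in non-OSCs could be looked up in the knockdown, since the 2 tables share no library. Of the 21 listed genes that were higher in OSCs and tested with shPDK1_2, 13 were lower with shPDK1_2 (61.9%), where this held for 30.6% of the 4580 genes that met the same condition. CXCL3, IL6 and TRAF1 passed the filter only through OSCs, and CXCL2 only through OSCs in the first table and shCtrl in the second, and of the 17 genes without these 4, 12 were lower. The 30.6% was taken without leaving such genes out, so the 12 of 17 cannot be set against it. The 13 were NFKB2, RELA, RELB, REL, NFKBIA, CXCL1, CXCL2, CXCL8, IL11, LIF, BIRC3, IRAK2 and SOD2. CSF3, which was lower in OSCs, was lower with shPDK1_2 as well, while IL1A, IL24 and PTGES did not pass with that hairpin. No such lookup was made with shPDK1_1. With that hairpin SOD2 alone of the 27 tested listed genes was lower (3.70%, against 1.44% of all tested genes).

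The levels of the sphere cultures with shCtrl were not the same as those of the OSCs without a hairpin. IL6 had 18.7 ± 0.855 CPM in OSCs and 1.88 ± 0.395 CPM in shCtrl OSCs, CXCL8 had 82.5 ± 1.83 and 15.2 ± 3.85 CPM, ICAM1 had 114 ± 8.42 and 32.3 ± 3.18 CPM, LIF had 87.7 ± 5.24 and 26.7 ± 1.39 CPM, and BIRC3 had 43.4 ± 1.29 and 14.8 ± 1.93 CPM (SD, n = 3 each). For LIF and ICAM1 the shCtrl level was near that of the adherent non-OSCs, at 28.1 ± 2.37 and 28.8 ± 1.20 CPM. CXCL1 was near it as well, with 4.39 ± 1.52 CPM in shCtrl OSCs and 4.20 ± 0.715 CPM in non-OSCs. SOD2 lay below it, with 67.2 ± 4.17 and 92.5 ± 5.18 CPM. RELB lay between, with 18.4 ± 0.399 CPM in non-OSCs, 47.0 ± 3.35 CPM in shCtrl OSCs and 64.2 ± 3.49 CPM in OSCs. NFKBIZ, in contrast, had 14.7 ± 1.14 CPM in OSCs and 15.0 ± 1.79 CPM in shCtrl OSCs. PDK1 had 70.3 ± 3.03 CPM in OSCs and 45.2 ± 1.28 CPM in shCtrl OSCs, the latter near the 46.6 ± 4.47 CPM of non-OSCs (SD, n = 3 each). These values come from tables that were normalized separately, no test was run between them, and the lentiviral vector, the experiment and the library group cannot be told apart.

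**Figure D4:**
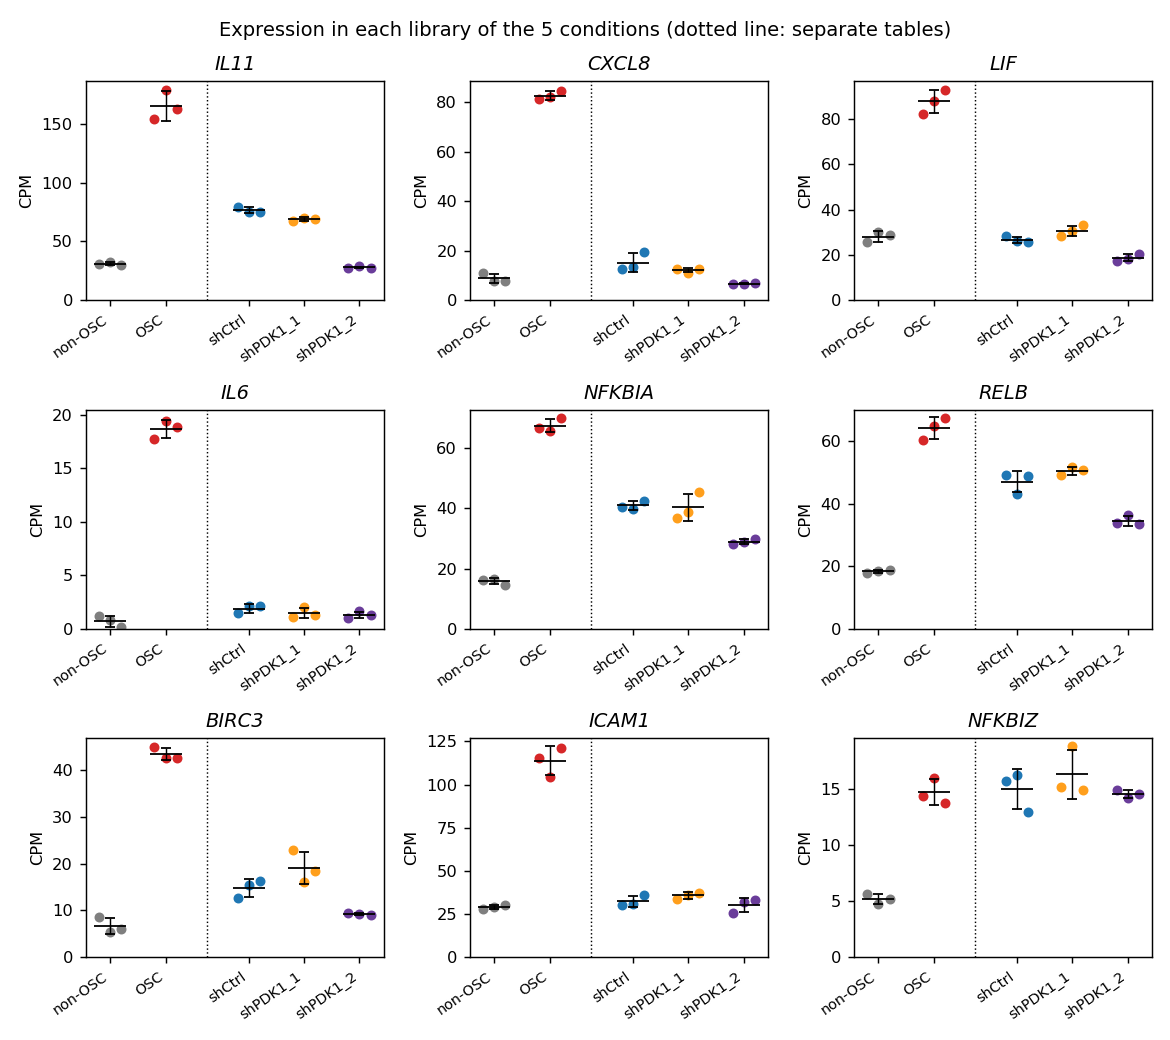
Expression in CPM (linear axes from 0) of 9 genes in each library of the 5 conditions; points are libraries, horizontal lines means and bars SD (n = 3 each), and the dotted line separates the tables, which were normalized separately. Values in OSCs lie above those of the other 4 conditions for every gene shown except NFKBIZ, and for IL11, CXCL8, LIF, NFKBIA, RELB and BIRC3 the shPDK1_2 libraries are the lowest of the 3 hairpin groups.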

How the data were processed

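The 15 libraries were made from total RNA with the NEBNext Ultra RNA kit. According to the submitters' processing notes and the paper's methods, trimming used Trimmomatic 0.39, read checks FastQC 0.12.1, alignment STAR 2.7.11a on GRCh38.p14, and counting RSEM 1.3.3. The authors deposited RSEM's expected count per gene, not normalized between libraries. The annotation and strandedness are not given in the sources used here. All gene identifiers matched GENCODE 44, which gave symbols, exons and transcript lengths.

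Expected counts were rounded to whole numbers (6.85% and 6.92% of the values in the 2 tables were not whole) and tested in R 4.3.3 with edgeR 4.0.16 (TMM, filterByExpr, quasi-likelihood test), each table in a fit of its own, with Benjamini-Hochberg adjustment over all tested genes and a threshold of 0.05. A second rule added a 2-fold difference. At this depth, given in the text, genes of a few counts have standard errors above 0.3 on the log2 scale. No 2 libraries of a condition agreed within counting noise (chi-square over degrees of freedom 1.96 to 3.56), and each counted as 1 sample. DESeq2 1.42.0, library size alone, other filters on low counts, a replicate block, fits of the compared groups alone, the summed CXCL1, CXCL2 and CXCL3 and each library left out in turn were the alternatives. The fit was tested on simulated data. Plots were drawn with Python 3.11.15 and matplotlib 3.10.9. The genes, the lists of pathway components, receptors and markers, and the tests were chosen with earlier results of these data known. Each library's value is printed for genes that passed the threshold with a mean of at least 10 CPM in the table, and the others are given by ranges and counts. The samples were grouped by their titles, and 0 columns of values were left unmapped.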

Additional observations from a re-analysis of the deposited data

Results flagged for a closer look

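Both hairpins were compared with the same shCtrl libraries, and for 11 of the 27 genes the effect of shPDK1_2 differed from that of shPDK1_1 in the contrast of the hairpins itself (quasi-likelihood test of edgeR, adjusted p under 0.05). On the log2 scale, shPDK1_2 minus shPDK1_1, the differences were -1.31 for IL11, -1.03 for BIRC3, -0.87 for CXCL8, -0.81 for IRAK2, -0.72 for LIF, -0.55 for RELB, -0.49 for NFKBIA, -0.37 for REL, -0.31 for NFKB2, -0.24 for SOD2 and -0.15 for RELA. Each was lower with shPDK1_2 (40.7% of the 27, against 9.78% of all tested genes). RELA and REL each lost this call in 7 of 15 alternatives, SOD2 in 2, and the other 8 kept it throughout. The hairpins also differed in 9 of the 31 tested pathway components. With shPDK1_2, 7 were lower (22.6%, against 9.78% of all tested genes) and 2 higher (6.45%, near the 6.50% of all tested genes). The differences were -0.77 for TNFAIP3, -0.48 for TNFRSF12A, -0.29 for RIPK1, -0.28 for TNIP2, -0.26 for TRAF6, -0.18 for BIRC2, -0.16 for TNIP1, 0.35 for TLR4 and 0.58 for TNFRSF11A. Of the 9 tested receptors, 3 were lower (33.3%, against 9.78%) and 1 higher (11.1%, against 6.50%). They were IL6ST at -0.57, OSMR at -0.28, ITGB1 at -0.28 and IL6R at 0.22. TNFAIP3 was higher than in shCtrl with shPDK1_1 and lower with shPDK1_2.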

How the results depend on the processing

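Of the 27 genes called between OSCs and non-OSCs, 26 kept the call in every alternative that gave them a value, as did 9 of 14 with shPDK1_2, 0 of 1 with shPDK1_1 and 8 of 11 in the contrast of the hairpins. When single libraries were left out, the number called with shPDK1_1 lay between 0 and 1 and with shPDK1_2 between 9 and 14, the lowest of both without shCtrl replicate 2. With shPDK1_2 the log2 fold change of CXCL3 was 0.52, and that of the sum of CXCL1, CXCL2 and CXCL3 was -0.84. The sum is dominated by CXCL1, so it gives no second estimate for CXCL3 itself. Under the rule of at least 10 counts in every library, CXCL2, CXCL3, IL6, CCL2, CSF2 and TRAF1 gave no value between OSCs and non-OSCs, nor did CXCL2, CXCL3, IL6, IL1A and IL24 in the hairpin table. The numbers called under a replicate block were 27, 1, 14 and 10, against 27, 1, 14 and 11 without it. Libraries with the same number did not deviate together (correlations of -0.054 to 0.095). Each deviation was taken from a mean of only 3 libraries, so this check cannot decide whether the numbers pair them. Genes of a few counts per library are limited by depth.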
